A study of Mus musculus with 12 samples.

Results

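The 6 cDNA samples of sorted mouse bone marrow stem cells fell into 2 submissions, told apart by the prefix of their titles, and the 2 samples titled MZ1484 were compared with the 4 titled MZ1468. MZ1484 held 1 CD49- and 1 CD49+ sample, and MZ1468 held 2 of each, so that CD49, an integrin alpha chain on the cell surface (the labels do not say which), was balanced between the submissions and entered the fit as a covariate. All 6 samples were used, and the cDNA of each was measured on both chip designs of a pair, Affymetrix MOE430A and MOE430B, on 12 arrays in all. Samples 1 and 3 were CD49- and samples 2 and 4 were CD49+, and values are given in the order of these numbers within each submission.

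Apart from the title and the CD49 label, the labels of the 2 submissions read alike. Each preparation came from about 30 cells with an estimated purity of 97.03%, lysed 0 h after the sort in a buffered medium with fetal bovine serum, and its cDNA was amplified by PCR. The labels give no strain, age, sex or treatment, and they do not say whether the samples came from separate animals. The p-values therefore speak only for the variation among the 6 preparations, which may be technical. The scanner records place the arrays of MZ1484 and of MZ1468 on different days for both designs, and submission and scan day cannot be told apart.

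Haematopoietic stem cells of adult marrow are mostly quiescent, and the cells that divide switch on one shared set of genes for replicating DNA and separating chromosomes. Immediate early genes, such as those of the Fos, Egr and Nr4a families, are transcribed within minutes of a stimulus without new protein synthesis, and their mRNAs decay quickly. Both sets are known to move with the state of the cells at the time of lysis.

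The 2 submissions differed on MOE430A in how many probe sets rose above background. A background bound was taken on each array as the highest signal of its Bacillus control probe sets, which match no mouse transcript. On MOE430A the percentage of probe sets above the bound was 46.9 and 39.5 in MZ1484 and 55.1, 49.7, 61.1 and 53.5 in MZ1468, and every MZ1484 array lay below every MZ1468 array. The exact two-sided permutation p, with submissions exchanged within CD49 groups, was 0.111, which is the smallest that the 9 arrangements allow. On MOE430B the same percentage was 25.5 and 18.8 in MZ1484 and 22.97, 16.5, 28.6 and 19.5 in MZ1468, and the ranges overlapped (exact permutation p = 1). The bound itself was 96.0 and 149 in MZ1484 and 78.0, 100, 81.9 and 84.0 in MZ1468 on MOE430A (exact permutation p = 0.111). Percentages above the bound, and genes at or under it, depend partly on this difference in the bound. The mean log2 signal of the 18 hybridisation control probe sets, which are added at fixed amounts, was 12.50 and 12.66 in MZ1484 and 12.11, 11.87, 11.90, 11.89 in MZ1468 on MOE430A. It was higher on both MZ1484 arrays by a mean of 0.64, and by 0.73 on MOE430B (exact permutation p = 0.111 on each). Of the probe sets above the bound on 3 MZ1468 arrays of MOE430A, the remaining MZ1468 array missed between 1.29% and 13.3%, while MZ1484-1 missed a mean of 20.1% and MZ1484-2 a mean of 28.8%. Among the 8345 probe sets above the bound on all 4 MZ1468 arrays, 1347 were above it only on MZ1484-1, 630 only on MZ1484-2 and 909 (10.9%) on neither MZ1484 array. The 75th percentile of the MOE430A signals was 499 and 385 in MZ1484 and 1138, 919, 1318 and 1212 in MZ1468, and the log2 ratio of 3′ to 5′ signal of Actb, a measure of RNA and cDNA length, was 1.39 and 2.90 in MZ1484 and 3.30, 3.14, 3.47 and 4.31 in MZ1468. Neither measure overlapped between the submissions (exact permutation p = 0.111 for each). The same ratio of Gapdh overlapped, with 6.58 and 10.07 in MZ1484 and 3.799 to 10.16 in MZ1468. The part of these array differences in the gene results was not tested.

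**Figure D1:**
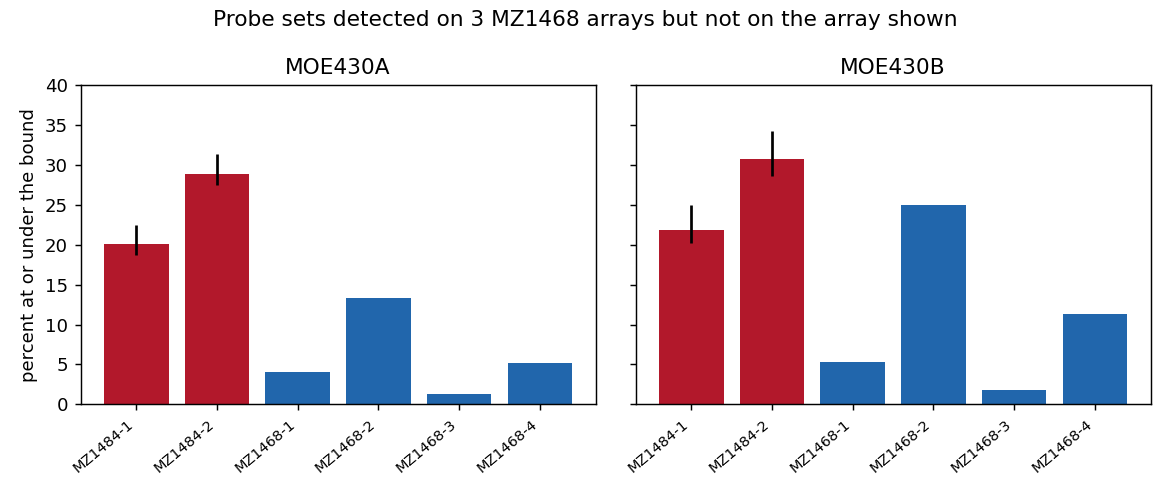
Percent of probe sets at or under the background bound on the array shown, among those above it on 3 MZ1468 arrays (for an MZ1468 array, the other 3), for each chip design. Bars of MZ1484 are means over the 4 sets of 3 arrays, with lines from the lowest to the highest. On MOE430A the MZ1484 bars stand at 20.1% and 28.8%, above the highest MZ1468 bar at 13.3%, while on MOE430B MZ1468-2 reached 24.9%.

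Among the tested probe sets of MOE430A far more were called lower in MZ1484 than higher, while MOE430B gave few calls. On MOE430A, limma called 131 of 11307 tested probe sets higher in MZ1484 (1.16%) and 705 lower (6.24%) at an adjusted p at or under 0.05. On MOE430B it called 11 of 11252 higher (0.0978%) and 34 lower (0.302%). The split moved with the scaling: higher calls were 15.7% of the calls on MOE430A and 24.4% on MOE430B, but 4.77% and 7.63% with arrays scaled on the hybridisation controls (chosen after seeing the data), and 50% on MOE430B with median centring. Counted once each, by the tested probe set with the highest mean, MOE430A before MOE430B, 102 of 12014 genes were higher (0.849%) and 474 lower (3.95%). All 576 called genes had no overlap between the submissions, and all had the same direction within CD49- and within CD49+ samples. Since the genes were called on these same arrays, this follows largely from the selection and adds no separate evidence. The differences were large, with a median absolute log2 difference of 4.54 among the called genes, while the median over the 12014 genes was -0.24. Below, "all genes" means these 12014 genes that passed the filter. That filter took the mean of 6 samples, 4 of them MZ1468, and so favours genes high in MZ1468. Without the filter, the median over MOE430A probe sets was 0.022 in place of -0.43. At an unadjusted p under 0.05 there were then 1616 higher and 2384 lower, in place of 796 and 2197. Of the 102 higher genes, 11 were at or under the bound on all MZ1468 arrays of their design. Of the 474 lower genes, 264 were at or under it on all MZ1484 arrays. These have only an upper limit in MZ1484, and their fold is given as "at least", from mean log2 signals without the pseudocount.

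The calls rested on the full set of 6 samples. Without MZ1468-1, MZ1468-3 or MZ1468-4, limma called 0 probe sets on MOE430A, although at an unadjusted p under 0.05 there remained 637 higher and 1737 lower, 535 and 1622, and 689 and 1972 probe sets, in that order. Without MZ1468-2 it called 102 higher and 799 lower, without MZ1484-1 297 and 1081, and without MZ1484-2 47 and 534. On MOE430B the split turned without a MZ1484 sample, with 16 higher and 12 lower without MZ1484-1 and 16 and 11 without MZ1484-2. There, leaving out any MZ1468 sample left 0 calls in limma, with 425 to 575 probe sets higher and 796 to 1262 lower at an unadjusted p under 0.05. With any 1 sample left out, and the probe set that stands for each gene chosen anew, 571 to 574 of the 576 called genes had the same direction. These genes were selected on all 6 samples, which favours a kept direction.

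**Figure D2:**
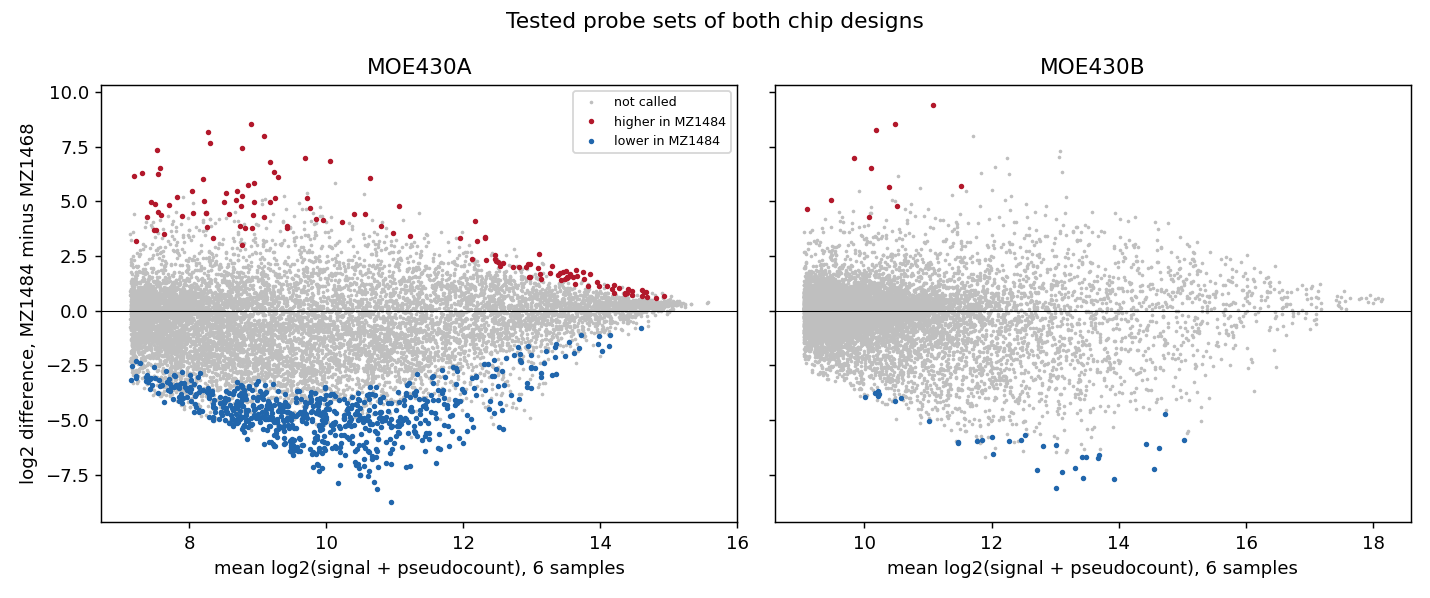
Log2 difference between MZ1484 and MZ1468 (vertical axis) against the mean log2(signal + pseudocount) of the 6 samples for the tested probe sets of MOE430A (left) and MOE430B (right). Coloured points passed limma at an adjusted p at or under 0.05, and on both designs more of them lie below 0 (705 and 34) than above (131 and 11).

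Genes of G2 phase and mitosis were lower in MZ1484 as a group. Of the 61 tested members of the mitosis list, 28 (45.9%) were lower and 0 higher, against 3.95% and 0.849% of all genes. On MOE430A, where 51 of the members were counted, 6.26% of genes were lower and 1.35% higher. In the list, 46 lower members had an unadjusted p under 0.05 against 0 higher ones. The median log2 difference of the list was -4.19, with -3.99 within CD49- and -4.38 within CD49+ samples, beside -0.24 over all genes. On MOE430A, between 54 and 56 of the 62 mitosis genes were above the bound on each MZ1468 array, and 22 and 17 on the MZ1484 arrays. In amplified cDNA from a few cells, fewer dividing cells and less of these RNAs per cell cannot be told apart.

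Mki67, the proliferation marker Ki-67, had signals of 95.2 and 144 in MZ1484 and of 11003, 17293, 11042 and 10529 in MZ1468 on MOE430A. Both MZ1484 samples were just under their bounds of 96.0 and 149, and all 4 MZ1468 samples lay far above theirs. Mki67 was at least 102-fold lower in MZ1484, with a log2 difference of -6.40 ± 0.62 (SE, limma adjusted p = 0.0216). Top2a, the topoisomerase that untangles DNA before chromosomes part, had signals of 35.5 and 66.7 in MZ1484 and of 4824, 15443, 7173 and 7307 in MZ1468. Again no MZ1484 sample was above the bound, and the gene was at least 66.2-fold lower (log2 difference -6.70 ± 0.75, limma adjusted p = 0.0216). Ccnb2, a B-type cyclin that activates the mitotic kinase, had signals of 6.05 and 57.01 in MZ1484 and of 5009, 9511, 7285 and 7425 in MZ1468. It was at least 59.6-fold lower in MZ1484 (log2 difference -7.08 ± 0.75, limma adjusted p = 0.0216).

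Kinetochore and chromosome segregation genes, of which Cenpi, Cdca5 and Cdkn3 stand outside the list, showed the same split. Cdca8, borealin of the chromosomal passenger complex, had MOE430B signals of 706 and 724 in MZ1484 and of 142043, 149704, 106074 and 118398 in MZ1468. By this probe set both MZ1484 samples were under the bound, and Cdca8 was at least 127-fold lower (log2 difference -7.23 ± 0.52, limma adjusted p = 0.0275). Of its 2 other probe sets, 1 was called at -7.71, and the other gave -3.76 without a call and was above the bound in MZ1484-1. Cenpi, a centromere protein of the inner kinetochore, had MOE430B signals of 84.99 and 78.3 in MZ1484 and of 13862, 15659.5, 13344 and 12541 in MZ1468 and was at least 13.7-fold lower (limma adjusted p = 0.044). Zwint, a kinetochore protein, had signals of 163 and 219.5 in MZ1484 and of 10865, 9189.8, 11256 and 10838 in MZ1468, above the bound in every sample, with a log2 difference of -5.60 ± 0.59 (limma adjusted p = 0.0216). Its 5 other tested probe sets ranged from -5.99 to 1.77, and 2 of them were called lower. Cdca5, sororin, which holds sister chromatids together, had signals of 181 and 309 in MZ1484 and of 10292, 20490.1, 13329 and 18898 in MZ1468. Its log2 difference was -5.85 ± 0.51 (limma adjusted p = 0.0216), and its other probe set gave -6.30. Cdkn3, a phosphatase that acts on cyclin-dependent kinases, had MOE430B signals of 43.4 and 66.4 in MZ1484 and of 103016, 42216, 63069.7 and 29209 in MZ1468. It was at least 52.8-fold lower in MZ1484 (log2 difference -8.10 ± 0.72, limma adjusted p = 0.0367). In each of these genes the highest MZ1484 sample lay far under the lowest MZ1468 sample.

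The 28 called members act at many steps of division. Besides Mki67, Top2a, Ccnb2, Cdca8 and Zwint they were the cyclins Ccna2 and Ccnf, the kinases Aurkb, Ttk, Bub1 and Melk, the transcription factor Foxm1, the condensin subunits Ncapg and Smc4, the kinetochore genes Ndc80, Spc25, Cenpf and Zwilch, the spindle genes Tpx2, Tacc3 and Nusap1, the cytokinesis genes Ect2, Racgap1 and Kif23, and Birc5, Cdc25b, Ube2c and H2ax. Their log2 differences ran from -3.53 to -7.23, and 22 of them were at or under the bound in all MZ1484 samples. Cdk1, the mitotic kinase itself, had signals of 317 and 474 in MZ1484 and of 1965, 2368, 1734 and 1534 in MZ1468. The groups did not overlap, but Cdk1 missed the threshold with a log2 difference of -2.20 ± 0.75 (limma adjusted p = 0.131). Ccnb1 was not tested, since no probe set carried its symbol alone.

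The promoters of 4 of these genes are shown because short sequence elements known from cell cycle promoters were frequent in the mitosis list. The sequences are the 150 bases before the RefSeq gene start in GRCm38.p6, 5′ to 3′ on the strand of the gene, with capitals marking the CCAAT box (CCAAT, or ATTGG for the other strand) and the core of the cell cycle genes homology region, CHR (TTTGAA or TTCGAA, or TTCAAA for the other strand).
Mki67 (chr7:135716380-135716529, - strand): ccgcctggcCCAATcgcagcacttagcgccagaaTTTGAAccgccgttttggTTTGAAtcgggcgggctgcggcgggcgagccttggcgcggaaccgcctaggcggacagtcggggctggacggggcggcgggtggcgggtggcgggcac
Top2a (chr11:99024190-99024339, - strand): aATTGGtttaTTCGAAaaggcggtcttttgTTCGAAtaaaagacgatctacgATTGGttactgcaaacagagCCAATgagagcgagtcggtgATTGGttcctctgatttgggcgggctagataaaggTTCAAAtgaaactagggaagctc
Ccnb2 (chr9:70421555-70421704, - strand): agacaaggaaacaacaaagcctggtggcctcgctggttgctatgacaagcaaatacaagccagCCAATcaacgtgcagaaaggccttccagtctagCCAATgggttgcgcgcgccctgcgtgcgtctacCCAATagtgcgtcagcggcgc
Cdca8 (chr4:124936918-124937067, - strand): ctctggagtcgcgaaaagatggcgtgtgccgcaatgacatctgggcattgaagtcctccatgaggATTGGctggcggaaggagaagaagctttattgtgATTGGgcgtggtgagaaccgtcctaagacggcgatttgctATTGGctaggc

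Within 250 bases before the start, on either strand, a CCAAT box was found in 40 of the 55 mitosis genes with a RefSeq promoter entry (72.7%), in 36.2% of 9754 tested genes and in 34.7% of all 26794 promoters of the same length. A CHR core was found in 20 of the 55 (36.4%), in 12.0% of the tested genes and in 17.1% of all promoters. Both elements together were found in 19 of the 55 (34.5%), against 4.69% of the tested genes. Among the 21 mitosis genes that were lower and had an entry, 16 (76.2%) had a CCAAT box and 7 (33.3%) a CHR core. In the sequences shown, Top2a held 4 CCAAT boxes and 3 CHR cores, Mki67 held 1 and 2, and Ccnb2 and Cdca8 held 3 CCAAT boxes each and no CHR core. Over all 396 lower genes with an entry, mitotic or not, 39.9% had a CCAAT box and 16.7% a CHR core. A match describes the letters only.

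**Figure D3:**
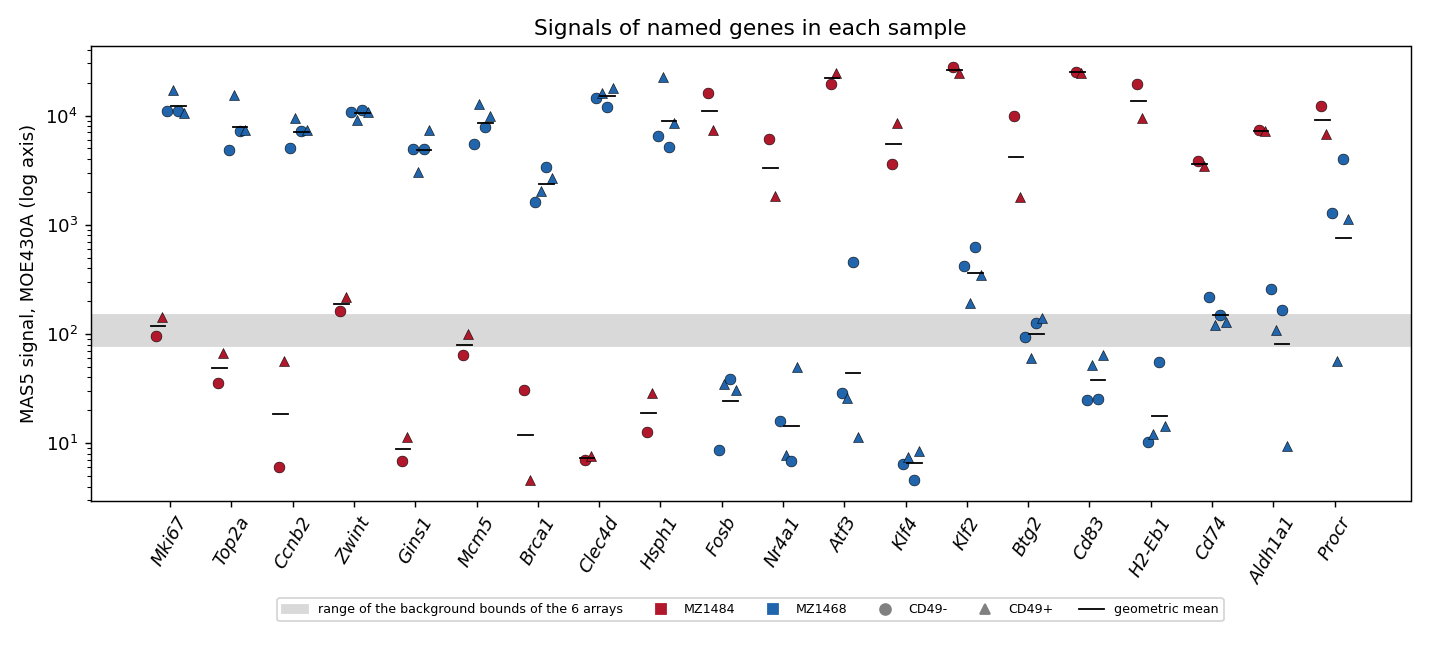
MAS5 signals on MOE430A (log axis) of 20 named genes in each of the 6 samples, coloured by submission, with circles for CD49- and triangles for CD49+, a bar at each submission's geometric mean, and a grey band over the range of the background bounds of the 6 arrays. From Mki67 to Hsph1 the MZ1484 samples lie below the MZ1468 samples, and from Fosb to Procr they lie above, with signals as far apart as 25047 and 25.03 for Cd83. Procr was not called.

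DNA replication genes were lower as well. Of 53 tested members of the S phase list, 14 (26.4%) were lower in MZ1484 and 0 higher, with 27 lower and 0 higher at an unadjusted p under 0.05, and a median log2 difference of -2.65 (-2.79 within CD49- and -2.51 within CD49+). Mcm5, a subunit of the MCM helicase that unwinds DNA, had signals of 64.4 and 98.96 in MZ1484 and of 5482, 12708, 7868 and 9994 in MZ1468 on MOE430A. The submissions did not overlap, and Mcm5 was at least 72.00-fold lower (log2 difference -6.33 ± 0.68, limma adjusted p = 0.0216). On MOE430B another Mcm5 probe set had a log2 difference of -7.66 ± 0.66 (limma adjusted p = 0.0357), and a further one gave -1.50. Gins1, of the GINS complex that works with that helicase, had signals of 6.85 and 11.4 in MZ1484 and of 4974, 3026, 4918 and 7319 in MZ1468 and was at least 40.4-fold lower (limma adjusted p = 0.0216). Gmnn, geminin, which prevents a second round of replication, had signals of 91.4 and 274 in MZ1484 and of 10931, 6723, 9744 and 9588 in MZ1468, with a log2 difference of -5.60 ± 0.72 (limma adjusted p = 0.0218). Brca1, a repair and replication fork protein, had signals of 30.9 and 4.63 in MZ1484 and of 1617, 2019, 3393 and 2706 in MZ1468 and was at least 19.6-fold lower (limma adjusted p = 0.0218).

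The other 10 lower members of the S phase list were Dbf4, Tk1, Uhrf1, Rfc2, Lig1, Asf1b, Cdc45, Mcm10, Rrm2 and Mcm4, and over all 14 the log2 differences ran from -2.38 to -7.07. On MOE430A between 48 and 51 of the 55 list genes were above the bound on each MZ1468 array, and 35 and 32 on the MZ1484 arrays. G1 cyclins, their kinases and E2F factors shifted less: of 17 tested, 1 was lower and 0 higher, with 2 higher and 7 lower at an unadjusted p under 0.05 and a median of -1.05. The called one was E2f1, the factor that turns on S phase genes, with signals of 40.4 and 150.5 in MZ1484 and of 3119, 2519, 2684 and 2472 in MZ1468 (log2 difference -4.63 ± 0.79, limma adjusted p = 0.0295), and its other probe sets gave -3.23 and -1.79. Cdk6, a G1 kinase, had MOE430B signals of 25009.7 and 15460.2 in MZ1484 and of 117714, 161334, 102234 and 116613 in MZ1468, which did not overlap, but missed the threshold (log2 difference -2.63 ± 0.41, limma adjusted p = 0.0721). Its other probe set, at or under the bound on every array, gave -0.022.

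Nucleotide synthesis genes gave lower calls too. Of 27 tested, 6 (22.2%) were lower and 0 higher in MZ1484, with 2 higher and 10 lower at an unadjusted p under 0.05 and a median of -1.53. They were Rrm2, also in the S phase list, Umps, Mthfd2, Shmt1, Shmt2 and Ctps. Mthfd2, an enzyme of mitochondrial folate metabolism, had signals of 14.9 and 27.01 in MZ1484 and of 2325, 2325, 4488 and 4918 in MZ1468 and was at least 27.7-fold lower (limma adjusted p = 0.0218). Rrm2, the small subunit of ribonucleotide reductase, had signals of 801 and 57.4 in MZ1484 and of 11928, 6153, 5439 and 9549 in MZ1468, lower in both MZ1484 samples although MZ1484-1 stayed above the bound. Its log2 difference was -4.90 ± 0.95 (limma adjusted p = 0.0369), and its other probe sets gave -5.02, called, and -1.75, not called. Umps, which makes UMP, had a log2 difference of -5.14 ± 0.97 (limma adjusted p = 0.0354) and Shmt1, a serine and glycine converting enzyme, one of -3.38 ± 0.65 (limma adjusted p = 0.0372), while the other Shmt1 probe set gave 1.24.

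Of 35 tested nuclear pore and transport genes, 5 (14.3%) were lower and 0 higher, with 0 higher and 12 lower at an unadjusted p under 0.05 and a median of -1.50. Rangap1, which activates the GTPase Ran at the pore, had signals of 16.6 and 8.84 in MZ1484 and of 11684, 14127, 11445 and 8714 in MZ1468 and was at least 94.8-fold lower (log2 difference -8.17 ± 0.71, limma adjusted p = 0.0216). Its other probe set gave only -0.65 and was not called. Kpna2, an importin alpha, had signals of 22.7 and 139.5 in MZ1484 and of 8323, 8716, 5291 and 7195 in MZ1468 and was at least 60.7-fold lower (limma adjusted p = 0.0218). The remaining calls were Ranbp1 (-2.92), Nup210 (-4.21) and Cse1l (-3.87 on the log2 scale). Outside the list, Nxt1, a partner of the main mRNA export factor, had signals of 673 and 329.8 in MZ1484 and of 22820.3, 15497, 22928 and 19862 in MZ1468, above the bound throughout. It was 40.1-fold lower on the scale with the pseudocount (log2 difference -5.33 ± 0.42, limma adjusted p = 0.0216).

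Lists of cell growth and upkeep had more lower than higher calls, as did all genes: of the 7318 genes counted on MOE430A, which holds nearly all members of these lists, 6.26% were lower and 1.35% higher. The shares of lower calls in the splicing (7.32%), oxidative phosphorylation (6.67%) and ribosome biogenesis lists (8.33%) lay near that of all genes. Of 43 mitochondrial ribosomal protein genes, 5 were lower and 1 higher with a median of -1.24, the lower ones being Mrps2, Mrpl28, Mrpl18, Mrpl1 and Mrpl12 and the higher one Mrpl23 at 1.00. Of 33 proteasome subunits, 4 were lower (Psmd13, Psmc4, Psmd8 and Psmd6, from -1.94 to -5.29) and 0 higher, with 1 higher and 9 lower at an unadjusted p under 0.05, and the list median was -0.99. Psmd13, a regulatory particle subunit, had signals of 355 and 217 in MZ1484 and of 10378, 15090.2, 13151 and 9919 in MZ1468, and its other probe set was also called, at -4.85. Of 36 ribosome biogenesis genes, 3 were lower (Bop1, Nop56 and Heatr1) and 1 higher (Ncl), with a median of -0.97. Bop1, a factor for large ribosomal subunits, had signals of 188 and 331 in MZ1484 and of 8831, 11572, 10734 and 5594 in MZ1468 (log2 difference -5.002 ± 0.68, limma adjusted p = 0.0218). Ncl, nucleolin, had a log2 difference of 1.75 ± 0.29 (limma adjusted p = 0.0289), but its 3 other probe sets ranged from -3.01 to 0.30, and the other 2 probe sets of Heatr1 gave -0.033 and 0.50.

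Of 29 DNA repair genes, 3 were lower (Xpc, Brca1 and Xrcc6) and 0 higher, with 2 higher and 9 lower at an unadjusted p under 0.05 and a median of -0.98. Xpc, which recognises damage for nucleotide excision repair, had signals of 7.000 and 7.28 in MZ1484 and of 2161, 2608, 2376 and 2931 in MZ1468. It was under the bound in both MZ1484 samples and above it in all MZ1468 samples, at least 20.9-fold lower (limma adjusted p = 0.0216). Of 41 splicing genes, 3 were lower (Srsf1, Sf3a1 and Lsm2) and 0 higher, with 1 higher and 10 lower at an unadjusted p under 0.05. The 2 other Sf3a1 probe sets gave -0.65 and 0.38. Of 60 oxidative phosphorylation subunits, 4 were lower (Atp5o, Ndufb2, Cyc1 and Sdhc) and 0 higher, with 3 higher and 10 lower at an unadjusted p under 0.05. The other Sdhc probe set gave -0.15, and the other Ndufb2 probe sets gave -2.62 and 0.46. The list median was 0.0073 and changed sign under 7 alternatives. Cyc1, cytochrome c1, had signals of 1707 and 751 in MZ1484 and of 8542, 11792, 7830.1 and 9748 in MZ1468 (log2 difference -3.02 ± 0.55, limma adjusted p = 0.0331). Single lower calls came from 4 further lists, at shares under the 6.26% of MOE430A genes. They were Hsph1 among 21 heat shock genes (4.76%, at least 75.2-fold) and Uhrf1 among 27 chromatin genes (3.70%, at least 21.2-fold). Uhrf1, also in the S phase list, recruits the maintenance DNA methyltransferase. The others were Fadd among 22 apoptosis genes (4.55%, log2 difference -4.05) and Polr2a among 19 housekeeping genes (5.26%, log2 difference -4.23).

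Immediate early genes were higher in MZ1484. Of 33 tested members, 12 (36.4%) were higher and 0 lower, against 0.849% and 3.95% of all genes. On MOE430A, where 29 of the members were counted, 1.35% of genes were higher and 6.26% lower. In the list, 23 were higher and 2 lower at an unadjusted p under 0.05. The median log2 difference was 3.24, with 2.55 within CD49- and 3.69 within CD49+ samples. The summed MOE430A signal of the 34 list genes was 251480.0 and 268608 in MZ1484 and lay between 31931 and 44005 in MZ1468.

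Fosb, a partner in the AP-1 transcription factor, had signals of 16229 and 7427 in MZ1484 and of 8.70, 34.7, 38.5 and 30.97 in MZ1468. All 4 MZ1468 samples were under the bound, and Fosb was at least 128-fold higher in MZ1484 (log2 difference 7.68 ± 0.69, limma adjusted p = 0.0216). Atf3, a stress-induced factor of the same leucine zipper class, had signals of 19585 and 24468 in MZ1484 and of 29.1, 25.7, 452 and 11.3 in MZ1468. Among the MZ1468 samples only MZ1468-3 was above the bound, and it still lay far under both MZ1484 samples (log2 difference 7.996 ± 1.12, limma adjusted p = 0.0229). Nr4a1, an orphan nuclear receptor, had signals of 6121 and 1818 in MZ1484 and of 15.9, 7.71, 6.87 and 49.4 in MZ1468 and was at least 38.96-fold higher (limma adjusted p = 0.0216). Egr1, a zinc finger factor that keeps stem cells quiescent in mice, had signals of 8826 and 4853 in MZ1484 and of 90.3, 893, 51.6 and 111 in MZ1468. MZ1468-2 was the highest of its submission, and the log2 difference was 5.15 ± 1.12 (limma adjusted p = 0.0483).

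The related genes Nr4a3 and Egr3 led the MOE430B calls. Nr4a3 had MOE430B signals of 173389 and 163590.0 in MZ1484 and of 129, 122, 116 and 64.5 in MZ1468. All MZ1468 arrays were under their bound, and Nr4a3 was at least 144-fold higher in MZ1484 (log2 difference 9.42 ± 0.50, limma adjusted p = 0.0128). Egr3 had MOE430B signals of 81242 and 34027 in MZ1484 and of 47.9, 12.3, 42.1 and 30.8 in MZ1468 and was at least 44.9-fold higher (log2 difference 8.25 ± 0.42, limma adjusted p = 0.0128). The MOE430A probe sets of these genes disagreed, with 0.41 for Nr4a3 and 0.26 for Egr3 and no call, and the list counts use those MOE430A sets. Tnfaip3, the A20 enzyme that limits NF-kappaB signalling, had MOE430B signals of 18366 and 17705 in MZ1484 and of 143, 179, 214 and 415 in MZ1468 and was at least 15.4-fold higher (limma adjusted p = 0.031). The other called members were Fos, Jund, Nr4a2, Klf6, Btg2, the phosphatase gene Dusp1 and Zfp36, whose protein destabilises mRNAs, and over the 12 the log2 differences ran from 3.54 to 7.996.

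Promoters of 3 immediate early genes are shown for the core of the cAMP response element, TGACG, in capitals (also marked where it reads on the other strand, as CGTCA), again as the 150 bases before the RefSeq gene start in GRCm38.p6.
Fosb (chr7:19310046-19310195, - strand): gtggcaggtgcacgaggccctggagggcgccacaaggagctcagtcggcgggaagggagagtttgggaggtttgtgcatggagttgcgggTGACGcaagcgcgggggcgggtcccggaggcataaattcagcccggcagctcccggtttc
Nr4a1 (chr15:101266696-101266845, + strand): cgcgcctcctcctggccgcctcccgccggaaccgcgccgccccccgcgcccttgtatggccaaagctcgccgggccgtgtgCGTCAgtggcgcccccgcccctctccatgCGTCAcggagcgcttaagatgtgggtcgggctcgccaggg
Nr4a3 (chr4:48045155-48045304, + strand): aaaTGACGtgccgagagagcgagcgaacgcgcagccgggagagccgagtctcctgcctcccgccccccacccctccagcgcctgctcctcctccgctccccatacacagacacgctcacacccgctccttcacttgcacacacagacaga

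Within 250 bases before the start, 15 of the 29 immediate early genes with an entry held TGACG on either strand (51.7%), against 26.7% of tested genes and 17.97% of all promoters. The full element TGACGTCA, which contains TGACG on both strands, was found in 3 of the 29 (10.3%), in 2.63% of tested genes and in 1.64% of all promoters. Of the 11 higher members with an entry, 8 (72.7%) held TGACG. In the sequences shown, Nr4a1 held 2 copies, Fosb 1 and Nr4a3 1. The same immediate early promoters had CCAAT boxes in 31.0% and CHR cores in 17.2%.

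Cell cycle inhibitors and quiescence genes were higher in part. Of 27 tested, 4 (14.8%) were higher and 0 lower, with 11 higher and 4 lower at an unadjusted p under 0.05, and the median was 1.19. Klf4, a zinc finger factor that restrains proliferation, had signals of 3575 and 8537 in MZ1484 and of 6.47, 7.50, 4.57 and 8.49 in MZ1468. It was under the bound in every MZ1468 sample and at least 64.5-fold higher in MZ1484 (log2 difference 7.36 ± 0.54, limma adjusted p = 0.0216). Klf2, a relative that keeps lymphocytes resting, had signals of 28049 and 24280.5 in MZ1484 and of 421, 191, 623 and 346 in MZ1468, above the bound in all samples and 66.6-fold higher on the scale with the pseudocount (limma adjusted p = 0.0218). Btg2, an antiproliferative gene counted in the immediate early list too, had signals of 9827 and 1788 in MZ1484 and of 94.3, 60.3, 126 and 141 in MZ1468, and the 2 MZ1484 samples differed from each other more than the 4 MZ1468 samples did (log2 difference 5.04 ± 0.82, limma adjusted p = 0.0287). Gadd45a, a growth arrest and DNA damage gene, had signals of 4035 and 6063 in MZ1484 and of 33.3, 127, 211 and 102 in MZ1468 (log2 difference 5.26 ± 0.81, limma adjusted p = 0.0269). Plk2, a kinase induced early after stimulation and outside the list, had signals of 2550.0 and 1120.2 in MZ1484 and of 40.3, 25.8, 61.1 and 11.7 in MZ1468 and was at least 19.7-fold higher (limma adjusted p = 0.0216).

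MHC class II and dendritic cell genes were also higher. Of 10 tested, 4 (40%) were higher and 0 lower, with 6 higher and 0 lower at an unadjusted p under 0.05, and the median was 2.60. Cd83, a surface protein that stabilises MHC class II on activated antigen-presenting cells, had signals of 25047 and 24723 in MZ1484 and of 25.03, 51.6, 25.5 and 64.5 in MZ1468. No MZ1468 sample was above the bound, and Cd83 was at least 291-fold higher (log2 difference 8.55 ± 0.68, limma adjusted p = 0.0216). H2-Eb1, an MHC class II beta chain, had signals of 19314 and 9466 in MZ1484 and of 10.2, 12.2, 55.5 and 14.3 in MZ1468 and was at least 158-fold higher (limma adjusted p = 0.0216). Cd74, the invariant chain that guides class II molecules, had signals of 3815 and 3435 in MZ1484 and of 219.5, 119.5, 150.2 and 129 in MZ1468 (log2 difference 4.36 ± 0.68, limma adjusted p = 0.0269). H2-Ab1 had a log2 difference of 2.23 ± 0.47 (limma adjusted p = 0.0454), but its other probe sets gave -1.31 and 0.55.

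The list was also read as a whole for dendritic cells. Its summed MOE430A signal over 13 genes was 92335 and 116644 in MZ1484 and lay between 15434 and 28763 in MZ1468. Of the 13 genes, 8 had both MZ1484 samples above all MZ1468 samples, 0 had both below, and 3 were under the bound on every array, the dendritic cell markers Itgax, Zbtb46 and Batf3. The share of all genes without overlap is not given here, so the count has no baseline. The 8 include the 4 genes that limma called on the same arrays. Beside the called genes, the 8 held H2-Aa, an MHC class II alpha chain (2843 and 2694 in MZ1484, 33.2 to 359 in MZ1468), H2-DMa, which loads class II molecules (13856 and 25918, against 7051 to 13665), Ctss, a protease that cleaves the invariant chain (11954 and 24705, against 37.7 to 10459.9), and Tcf4, a factor of plasmacytoid dendritic cells (1594 and 940.1, against 496 to 707). Ciita, the activator of class II genes, had overlapping signals of 59.7 and 131 in MZ1484 and of 124, 175, 112 and 101 in MZ1468. It was under the bound in both MZ1484 samples and above it in all MZ1468 samples. The bounds themselves differed, at 96.0 and 149 in MZ1484 against 78.0 to 100 in MZ1468. Flt3 was at 616 and 4439 in MZ1484 and between 318 and 1144 in MZ1468, so the ranges overlapped. The part of other cells in the higher class II signals was otherwise not tested.

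Stem cell genes gave some higher calls, while their share of lower calls lay near that of all genes. Of 29 tested surface and marker genes, 3 were higher (10.3%) and 1 lower (3.45%) in MZ1484, against 0.849% and 3.95% of all genes. The list median was 1.44, and 9 were higher and 1 lower at an unadjusted p under 0.05. Clec1a, a C-type lectin, had MOE430B signals of 14141 and 35430.0 in MZ1484 and of 218, 57.2, 82.1 and 86.2 in MZ1468 and was at least 19.1-fold higher (limma adjusted p = 0.031). Aldh1a1, a retinaldehyde dehydrogenase of stem cells, had signals of 7362 and 7158 in MZ1484 and of 255, 108, 165 and 9.42 in MZ1468, alike in both MZ1484 samples and much lower in MZ1468 (log2 difference 5.83 ± 0.89, limma adjusted p = 0.0262). Sult1a1, a sulfotransferase, had signals of 22039 and 2575 in MZ1484 and of 467, 95.5, 1219.9 and 72.1 in MZ1468. In both submissions it was higher in CD49- than in CD49+ samples, and the log2 difference between submissions was 4.69 ± 0.80 (limma adjusted p = 0.0293). Vldlr, a lipoprotein receptor, was the lower one, with signals of 10.6 and 212 in MZ1484 and of 7476, 4682, 8237 and 4894 in MZ1468 (log2 difference -6.02 ± 0.98, limma adjusted p = 0.0287), although 4 other probe sets ranged from -3.70 to 0.26.

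Of the stem cell markers always named, none passed the test. Procr had signals of 12335 and 6746 in MZ1484 and of 1284, 57.1, 4023 and 1122 in MZ1468, with both MZ1484 samples above all MZ1468 samples, a wide spread within MZ1468 and a log2 difference of 3.43 ± 1.28 (limma adjusted p = 0.156). Slamf1 had signals of 3011 and 29.7 in MZ1484 and of 264, 7.52, 524 and 60.03 in MZ1468, and Fgd5 had MOE430B signals of 9409 and 179 in MZ1484 and of 3459, 91.4, 7293 and 213 in MZ1468. Both genes were higher in each CD49- sample than in any CD49+ sample, in either submission. Their log2 differences between submissions were 1.49 ± 0.87 for Slamf1 (limma adjusted p = 0.325) and 0.52 ± 0.52 for Fgd5 (limma adjusted p = 0.699). Kit had low signals of 136 and 335 in MZ1484 and of 126, 242, 95.9 and 159 in MZ1468, and the ranges overlapped (log2 difference 0.47 ± 0.53, limma adjusted p = 0.603). Ly6a was not tested, since no probe set carried its symbol alone.

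Of 30 stem cell transcription factors, 2 were higher (Zfp36l1 and Egr1, 6.67%) and 1 lower (Ets2, 3.33%), with a median of 0.41. Of all genes, 0.849% were higher and 3.95% lower. Of the 32 list genes on MOE430A, 9 had both MZ1484 samples above all MZ1468 samples and 3 had both below. A further 2, Mecom and Ikzf2, were at or under the bound on every array. The share of all genes without overlap is not given here, so these counts have no baseline. Among the 9, Lmo2 was at 25694 and 28608 in MZ1484 and between 17092 and 21178 in MZ1468. Lyl1 was at 21469.6 and 21561 against 15633 to 17747. Both were above the bound on every array, and neither was called. Zfp36l1, an mRNA decay factor, had signals of 8433 and 5340.1 in MZ1484 and of 339, 691, 192 and 345 in MZ1468 (log2 difference 4.14 ± 0.84, limma adjusted p = 0.041). Ets2 had a log2 difference of -4.29 ± 0.88 (limma adjusted p = 0.0416), with its 2 other probe sets at -0.11 and 0.33. The sign of the list median changed to -0.17 when arrays were scaled on the hybridisation controls.

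Lists of other blood lineages gave few calls. Among 18 granulocyte and monocyte genes, 21 multipotent and lymphoid-primed genes, 11 erythroid, 8 B cell, 8 T and natural killer cell, 3 mast cell and basophil and 16 stromal genes, limma called 0 in either direction. At an unadjusted p under 0.05, the granulocyte and monocyte list had 4 higher and 1 lower, the lymphoid-primed list 4 and 1, the erythroid list 0 and 1, the B cell list 0 and 2, and the stromal list 2 and 3, while the other 2 lists had 0. The summed MOE430A signal of the granulocyte and monocyte list was 99063 and 123813 in MZ1484 and between 31001 and 59639 in MZ1468, without overlap, and the part of such cells in other results was not tested. Of its 34 genes on MOE430A, 8 had both MZ1484 samples above all MZ1468 samples, 2 had both below, and 6 were at or under the bound on every array. The share of all genes without overlap is not given here, so these counts have no baseline. Among the 8, Lyz2, a lysozyme of macrophages, was at 19728 and 31875 in MZ1484 and between 2750.4 and 9975 in MZ1468, and Cebpb, a factor of myeloid differentiation, at 15679 and 19905 against 421 to 4272. Cd14, a monocyte surface receptor, was at 259 and 864 in MZ1484 and under the bound in all MZ1468 samples, and Prtn3, a protease of granules, at 12462 and 6988 against 3991 to 5391. The 2 with both MZ1484 samples below were Cebpd and Ctsg. Cebpd was at 107 and 148 against 982 to 1494 (limma adjusted p = 0.0561). Ctsg was at 12.5 and 8.63 against 14.6 to 741, above the bound in only 2 MZ1468 samples. The granule genes Ltf, Camp and Ngp were under the bound on every array. Of 19 megakaryocyte genes, 1 was higher, Tbxas1, the thromboxane synthase gene, with signals of 18764 and 29544 in MZ1484 and of 2055, 1598, 3962 and 2298 in MZ1468 (log2 difference 3.32 ± 0.56, limma adjusted p = 0.0293).

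Outside the lists, Clec4d, a C-type lectin receptor known from myeloid cells, had signals of 6.94 and 7.55 in MZ1484 and of 14548, 16217, 11945 and 17716 in MZ1468. Both MZ1484 samples were under the bound, and Clec4d was at least 125-fold lower (log2 difference -8.77 ± 0.67, limma adjusted p = 0.0216). Gtf3a, the RNA polymerase III factor TFIIIA, had signals of 1381 and 1776 in MZ1484 and of 17880.3, 18099.8, 20135 and 17099.9 in MZ1468, well above the bound throughout and 11.5-fold lower on the scale with the pseudocount (limma adjusted p = 0.0216). Fam136a was at least 104-fold lower (limma adjusted p = 0.0216), while both other probe sets of it gave -1.32. On MOE430B, Ppil1, a cyclophilin of the spliceosome, was at least 53.2-fold lower (limma adjusted p = 0.0367). Mlec, malectin of the endoplasmic reticulum, had MOE430B signals of 1602 and 2485 in MZ1484 and of 119844, 161149, 120911 and 126068 in MZ1468 (log2 difference -5.94 ± 0.46, limma adjusted p = 0.0298), and its other probe sets gave -3.83 and -3.57.

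On the higher side, Tnfaip6, an inflammation-induced hyaluronan-binding protein, had signals of 1318 and 2229.6 in MZ1484 and of 10.8, 42.6, 39.1 and 24.4 in MZ1468 and was at least 20.02-fold higher (limma adjusted p = 0.0216). Unc45b, a myosin chaperone known from muscle, had MOE430B signals of 47354 and 116802 in MZ1484 and of 93.9, 58.8, 38.1 and 42.3 in MZ1468. Every MZ1468 array was under its bound, and Unc45b was at least 63.5-fold higher (log2 difference 8.56 ± 0.50, limma adjusted p = 0.015). Snx10, a sorting nexin, had MOE430B signals of 13294 and 12917 in MZ1484 and of 545, 163, 338 and 418 in MZ1468 and was at least 11.2-fold higher (limma adjusted p = 0.044), but its MOE430A probe set gave 0.62. Rsad2, the antiviral protein viperin, was the single call among 29 interferon response genes (log2 difference 6.10 ± 0.90, limma adjusted p = 0.0259), and the list median was 0.47. Smaller differences at high signals were called for H2-K1 of MHC class I (0.76 ± 0.15, limma adjusted p = 0.0394), for Ldhb, a lactate dehydrogenase subunit (1.69 ± 0.25, limma adjusted p = 0.0245), with its 3 other probe sets also called, and for Gstp1, a glutathione transferase (0.96 ± 0.18, limma adjusted p = 0.0331).

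The remaining lists held few calls. Of 39 cytosolic ribosomal protein genes, 1 was higher, Rps6, with signals of 18938 and 15161 in MZ1484 and of 5219.8, 2553, 5757 and 4182 in MZ1468 (log2 difference 1.99 ± 0.41, limma adjusted p = 0.0416), and 0 were lower. The list median of 0.31 turned below 0 with quantile normalization and to -0.33 with scaling on the hybridisation controls. That scaling also turned the medians of the interferon (-0.18), megakaryocyte (-0.24), granulocyte and monocyte (-0.27), T and natural killer cell (-0.02), cytokine receptor, lymphoid-primed, mast cell, stromal, translation factor and housekeeping lists below 0. Of 32 translation factors limma called 0, with 7 higher and 5 lower at an unadjusted p under 0.05. Cytokine receptor genes had 2 lower calls of 28, Il1r1 (-4.97) and Csf2rb2 (-4.99 on the log2 scale). Among 24 homing genes Icam1 was lower (4.17%, at least 9.43-fold), and among 24 antioxidant genes Nqo1 (4.17%, at least 26.7-fold). Among 26 glycolysis genes Eno3 was lower (3.85%, log2 difference -4.75). These shares lay under the 6.26% of MOE430A genes. Among 8 histone genes H2ax was lower and H1f2 higher (3.35 on the log2 scale). The 19 housekeeping genes had a median of 0.15.

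**Figure D4:**
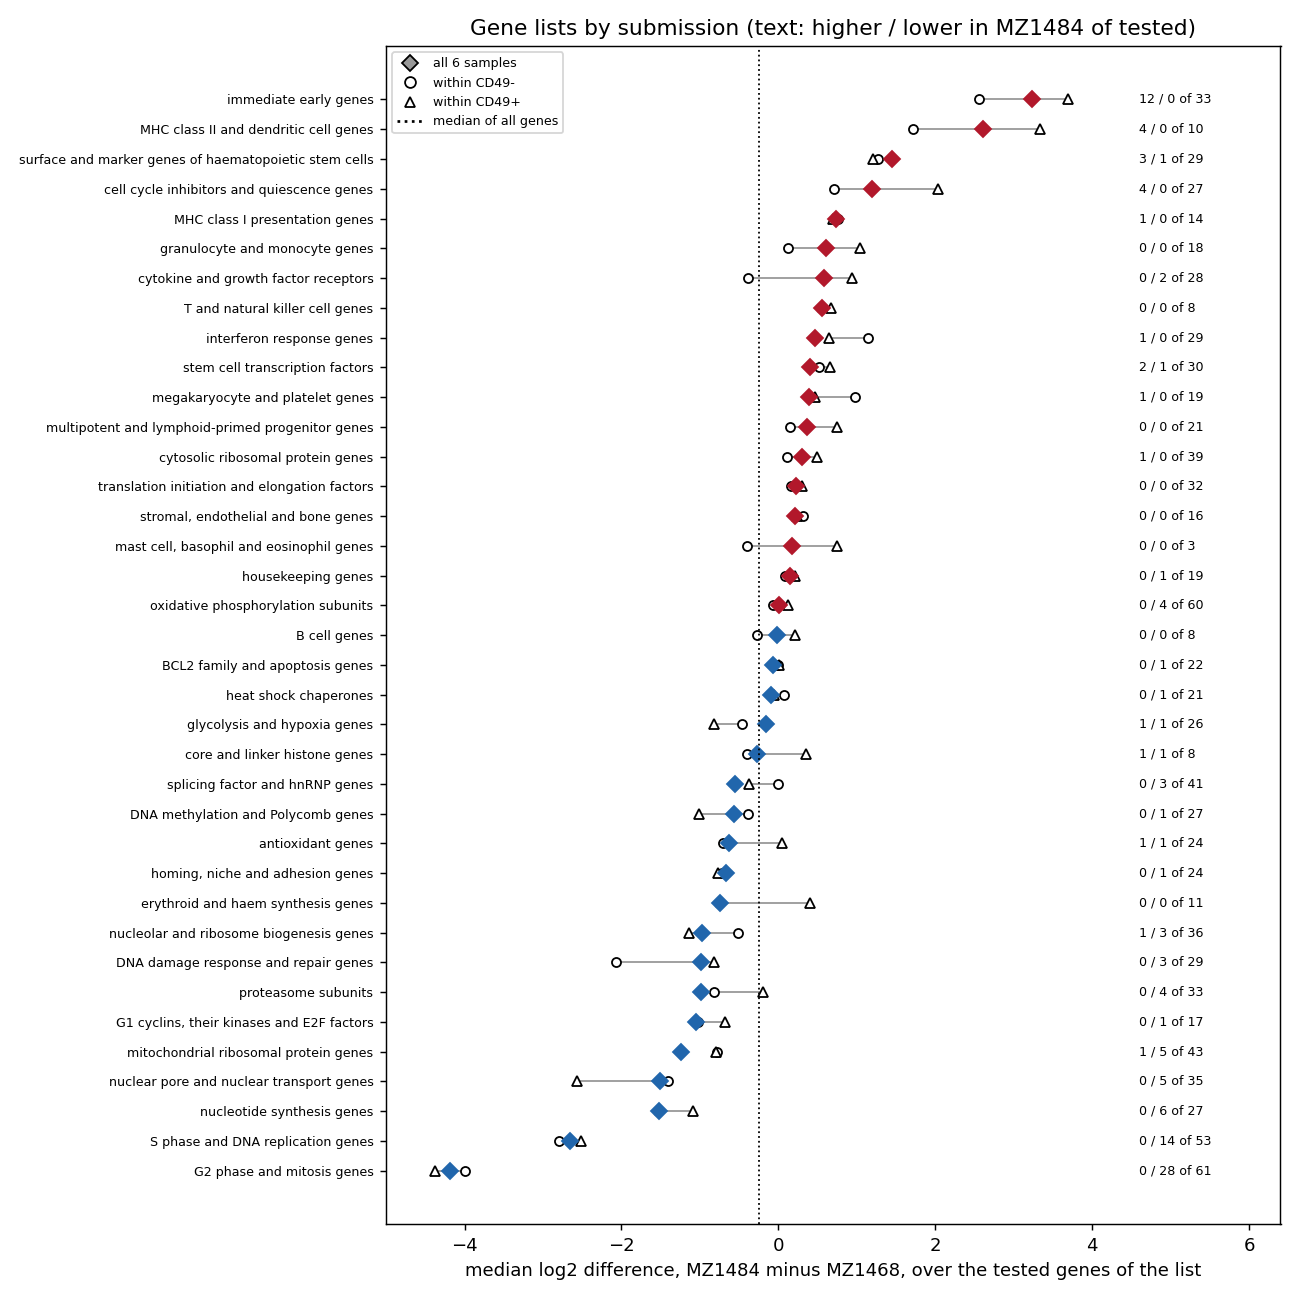
Median log2 difference between MZ1484 and MZ1468 for each of the 37 gene lists (diamonds, red above 0 and blue below), with the medians within CD49- (circles) and within CD49+ samples (triangles), and at right the numbers of genes higher and lower in MZ1484 of those tested. The dotted line marks the median of the 12014 genes that passed the filter, at -0.24. The mitosis list lies lowest at -4.19 and the immediate early list highest at 3.24, and neither changed sign under any alternative run.

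The CD49 difference itself was not the same in both submissions for some genes. In a fit with the product of CD49 and submission, limma called 245 of 11307 probe sets on MOE430A (2.17%) and 0 of 11252 on MOE430B (0%), with 2315 and 1301 at an unadjusted p under 0.05. The difference of CD49+ minus CD49- was higher in MZ1484 for 102 of the 245 and lower for 143, and 5 of the 245 were also called between the submissions. Of the 245, 232 were above the bound on all 4 MZ1468 arrays. Of these, 24 were at or under the bound on MZ1484-1 alone, 78 on MZ1484-2 alone and 0 on both, while the majority, 130, were above it on both.

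Examples, 3 of them at or under the bound in 1 MZ1484 sample, were chosen after their values were seen. Uxt, a prefoldin-like chaperone, had signals of 10.6 and 22615 in MZ1484 and of 25132, 22603, 18896 and 20915 in MZ1468. It was near background in MZ1484-1 alone, while the other 5 samples were alike. Atox1, a copper chaperone, had signals of 292 and 24516 in MZ1484 and of 22338, 20119, 20714 and 18222 in MZ1468. Gfer, a sulfhydryl oxidase of mitochondria, was low in the other MZ1484 sample, with signals of 17419.6 and 56.7 in MZ1484 and of 16675, 15728, 12353 and 16726 in MZ1468. Snrnp25, of the minor spliceosome, had signals of 11189 and 16.5 in MZ1484 and of 15239.8, 13076, 16850.5 and 13190.3 in MZ1468, again low only in MZ1484-2. The interaction had a limma adjusted p of 0.0221 for each of these 4 genes. Since MZ1484 had 1 sample for each CD49 group, a CD49 effect in it and a difference between its 2 samples cannot be told apart.

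**Figure D5:**
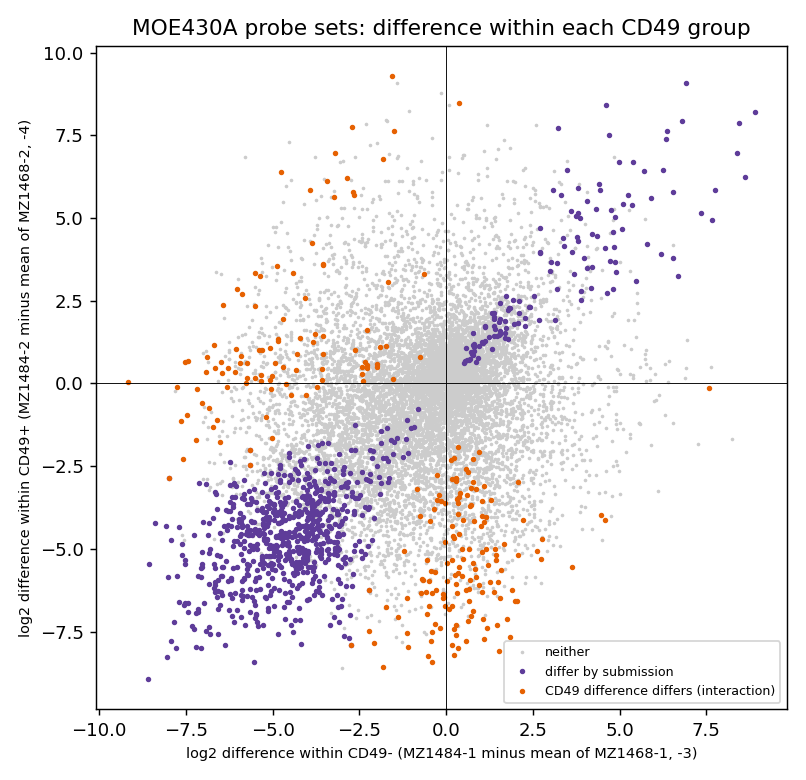
Log2 difference between MZ1484 and MZ1468 within CD49- samples (horizontal axis) and within CD49+ samples (vertical axis) for the tested probe sets of MOE430A. Probe sets that differ by submission (purple) lie in the lower left and upper right, lower or higher in both, and the 245 interaction probe sets (orange) lie mostly near 1 axis or in the opposite quadrants.

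The 2 chip designs carried the same cDNA, and 1532 genes were tested by different probe sets on both. Of the 116 of these called on MOE430A, 82 had the same sign on MOE430B, and of the 8 called on MOE430B, 7 had the same sign on MOE430A. On both, 1 gene was called with the same sign. Because the designs share their samples, this compares probe sets and not samples.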

How the data were processed

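Amplified cDNA of 6 samples was measured on 2 Affymetrix designs (12 arrays). Deposited values were linear signal intensities; per the submitters' processing notes the authors computed them with MAS5, in a version that is not given in the sources used here. On every array these signals had a 2% trimmed mean of about 1501, and no further scaling was applied. MOE430A holds 22690 probe sets and MOE430B 22575, of which 20380 and 14661 had 1 symbol in the platform annotation, with 0 updated through RefSeq (GRCm38.p6). The 64 controls per design and 13 and 7 chromosome Y probe sets were left out.

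Signals were tested as log2(signal + pseudocount), the pseudocount being the 25th percentile of the design (27.0 and 140.0), which understates differences of weak genes. Probe sets with a mean at or above the design's median entered lmFit and eBayes (with trend) of limma 3.58.1 under R 4.3.3, with CD49 and submission as terms and 3 residual degrees of freedom, with Benjamini-Hochberg adjustment per design at 0.05. SE is the moderated standard error. The fit was checked on simulated data. Precision is limited by the number of arrays, since these hold no read depth.

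The members, the 37 gene lists and the tests were chosen with earlier results of these data known. Named genes were, per design and direction, the 6 with the smallest p among called genes without overlap of the submissions and above the bound on all arrays of the higher one (filled up by unadjusted p where fewer), the 4 members of a list with the smallest p where 3 or more were called and otherwise the 2 with the smallest p, and a fixed set of proliferation and stem cell genes. The bound rests on 27 Bacillus probe sets per array. Alternatives changed pseudocount, filter, scaling, covariate, block, trend and samples; scaling on hybridisation controls was added after seeing the data. Promoter sequences are RefSeq's, and motifs were searched in the 250 bases before the start.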

Additional observations from a re-analysis of the deposited data

Results flagged for a closer look

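Among the 4 MZ1468 samples, 1 sample stood apart for 7 named genes and 2 array measures, by the gap to its nearest neighbour as a share of the range. Chance alone flags about 1 in 20 such groups. The number of groups looked at is not given here, so the flags cannot be set against that rate. The gap took a share of 0.849 for Atf3 (signal 452 in MZ1468-3), 0.877 for Bgn, a matrix proteoglycan (241 in MZ1468-4), 0.873 for Gata2, a stem cell transcription factor (577 in MZ1468-2), 0.868 for H2-Eb1 (55.5 in MZ1468-3), 0.948 for Heatr1 (747 in MZ1468-1), 0.904 for Mki67 (17293 in MZ1468-2) and 0.8291 for Mlec on MOE430B (161149 in MZ1468-2). On MOE430A it took 0.866 for the mean of the hybridisation controls (12.1 in MZ1468-1) and 0.835 for the median signal (153 in MZ1468-3).

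The interaction term of limma, which called 2.17% of the tested MOE430A probe sets, also called 3 of the named genes. The number of named genes is not given here, so the 3 cannot be set against that share. MZ1484 had 1 sample for each CD49 group, so a CD49 effect and a difference between its samples cannot be told apart. The adjusted p was 0.0453 for Cct3, a chaperonin subunit with signals of 535 and 6196 in MZ1484 and of 21307, 19079.6, 15828 and 20283 in MZ1468. It was 0.0252 for Ezh2, the Polycomb methyltransferase with signals of 107 and 5846 in MZ1484 and of 19548, 21098, 20073 and 17792 in MZ1468. It was 0.0498 for Nop56, a small nucleolar RNA protein with signals of 354 and 3163 in MZ1484 and of 19905, 17051, 18375 and 18356 in MZ1468. In all 3 genes MZ1484-1 was the lowest of the 6 samples.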

How the results depend on the processing

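The counts of calls depended on the processing more than the directions did. Under the alternatives to MOE430A's 131 higher and 705 lower probe sets, no filter gave 46 and 271, a pseudocount at the 50th percentile 114 and 443, no CD49 covariate 218 and 932, and CD49- samples only 689 and 2315. On MOE430B, with 11 and 34, a pseudocount at the 10th percentile gave 10 and 66, one at the 50th percentile 8 and 4, the highest 25% by mean 31 and 118, no CD49 covariate 30 and 118, no trend 42 and 134, and median centring 9 and 9. Scaling on the hybridisation controls, added after seeing the data, gave 84 and 1677 on MOE430A and 10 and 121 on MOE430B and moved the median of all tested probe sets from -0.43 to -1.01 and from -0.06 to -0.66. The share of higher calls was then 4.77% in place of 15.7% on MOE430A and 7.63% in place of 24.4% on MOE430B, where median centring gave 50%, a pseudocount at the 10th percentile 13.2% and one at the 50th percentile 66.7%. CD49+ samples only gave 0 calls on both designs and CD49- samples only 0 on MOE430B in limma, and these 3 fits had 512 to 1813 probe sets per direction at an unadjusted p under 0.05. Without a filter the interaction called 31 probe sets on MOE430A. The cause of these changes was not tested.

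With each sample left out in turn, the calls on MOE430A ranged from 0 to 297 higher and from 0 to 1081 lower, and on MOE430B from 0 to 16 higher and from 0 to 12 lower. With the sample number as a replicate block in place of CD49 limma called 0 on both designs, with 270 higher and 1043 lower on MOE430A and 276 and 642 on MOE430B at an unadjusted p under 0.05. Deviations of same-numbered samples correlated at 0.022 and -0.0027 on MOE430A and 0.012 and 0.026 on MOE430B. Same-numbered samples also share their CD49 label, so the block cannot be separated from CD49. Whether they share anything else cannot be settled with so few pairs. All called named genes kept their direction under every alternative that gave a value, which their selection on the same arrays favours. Of uncalled ones, Egr3 on MOE430A turned to -0.26 with hybridisation control scaling, to -0.71 in CD49+ samples only and without MZ1484-1, and to -0.097 without MZ1468-1, within a leave-one-out range of -0.71 to 1.22. With that scaling Fgd5 turned to -0.051, Kit to -0.081, Nr4a3 on MOE430A to -0.15 and Snx10 on MOE430A to -0.00842, and Mcpt8 turned to 0.26 in CD49+ samples only and without MZ1484-1, within a leave-one-out range of -3.42 to 0.26. The mitosis list median stayed between -4.70 and -3.12 and the immediate early median between 2.53 and 4.01. Signals near background limit what can be said of low genes, and 2 samples limit MZ1484.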
